A study of Rattus norvegicus with 9 samples.

Results

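The proteins of the mitochondrial ribosome are encoded in the nucleus by genes whose rat symbols begin with Mrpl or Mrps and a digit. The tables of this study held 75 such names, and 72 of them passed a filter of a mean of at least 1 TPM, a length-corrected share of a library's transcripts, over the 9 libraries, among 12128 genes or unnamed loci that passed it. By the structure of the mammalian particle, 45 of the 72 encode large-subunit proteins, Mrps30 and Mrps18a among them despite their letter, and 26 encode small-subunit proteins. Mrps36 belongs to neither, since its product is now known as a part of the oxoglutarate dehydrogenase complex. The RNA was that of CD4+ T cells in the blood of SD rats aged 8 to 10 weeks. Combination rats were CIA rats treated for 4 weeks with several compounds together, model rats were CIA rats without that treatment, and normal rats had neither, with 3 libraries for each. The labels leave CIA unexplained, and collagen-induced arthritis was assumed, as the series is about rheumatoid arthritis. The labels name neither the compounds nor the way CD4+ cells were selected. They also leave unsaid if the libraries of a group are from different animals, and the spread behind each p-value, taken between libraries, may be technical. In bulk RNA, fewer cells of a type and less RNA per cell cannot be told apart.

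The mitochondrial ribosome translates the few messenger RNAs of the mitochondrial genome, which encode core subunits of the respiratory chain and ATP synthase. Its large subunit joins amino acids and lets the growing chain out through a tunnel, and its small subunit reads the codons. Many of its proteins descend from bacterial ribosomal proteins and others were added in mitochondria. Activated T cells are known to enlarge their mitochondria and to need mitochondrial translation when they proliferate.

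The promoters of 4 genes on which the comparisons below turn are printed here, each from 250 bases before to 50 bases after the start of the gene, from RefSeq on build GRCr8. In Mrps6 and Mrps18a capitals mark the core AAGATGGC bound by the transcription factor YY1, in Mrps18a and Mrpl33 the core CCGGAAG bound by ETS family factors, and in Mrpl54 the E-box CACGTG.
Mrps6 (chr11:44778417-44778716, forward strand): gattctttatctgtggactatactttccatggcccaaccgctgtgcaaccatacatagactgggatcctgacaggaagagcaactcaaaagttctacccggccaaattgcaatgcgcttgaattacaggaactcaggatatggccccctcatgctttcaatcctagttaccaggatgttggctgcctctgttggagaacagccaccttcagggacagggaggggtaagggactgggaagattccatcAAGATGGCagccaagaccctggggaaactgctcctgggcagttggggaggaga
Mrps18a (chr9:22367331-22367630, reverse strand): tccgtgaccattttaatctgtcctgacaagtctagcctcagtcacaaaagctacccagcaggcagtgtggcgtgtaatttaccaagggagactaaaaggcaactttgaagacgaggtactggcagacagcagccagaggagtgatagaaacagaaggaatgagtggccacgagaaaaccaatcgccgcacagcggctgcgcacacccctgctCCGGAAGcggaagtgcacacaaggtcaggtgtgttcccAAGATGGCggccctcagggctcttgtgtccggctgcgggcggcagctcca
Mrpl54 (chr7:9103275-9103574, forward strand): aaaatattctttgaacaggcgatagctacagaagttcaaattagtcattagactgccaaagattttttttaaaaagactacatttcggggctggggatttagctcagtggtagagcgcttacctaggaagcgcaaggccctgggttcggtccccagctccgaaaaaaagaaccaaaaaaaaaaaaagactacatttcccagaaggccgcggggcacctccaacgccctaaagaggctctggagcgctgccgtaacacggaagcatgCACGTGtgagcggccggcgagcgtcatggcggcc
Mrpl33 (chr6:30553938-30554237, reverse strand): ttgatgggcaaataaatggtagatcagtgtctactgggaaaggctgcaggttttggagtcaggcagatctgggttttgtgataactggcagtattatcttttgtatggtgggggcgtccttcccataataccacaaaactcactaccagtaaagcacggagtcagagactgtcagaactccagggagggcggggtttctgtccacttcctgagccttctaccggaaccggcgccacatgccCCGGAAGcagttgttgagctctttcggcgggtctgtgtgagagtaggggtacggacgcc
The YY1 core, searched as AAGATGGC on either strand, stood in 15 of 59 windows that RefSeq gave for 57 of the 72 genes, or 25.4%, against 6.54% of 6670 windows of all tested genes and 3.17% of all 33469 windows. Of its 15 matches, 13 lay within 50 bases of the start. The ETS core CCGGAAG stood in 20 of the 59 windows, or 33.9%, against 21.1% of windows of tested genes and 8.75% of all windows. The palindromic core bound by NRF1 stood in 4 windows (6.78%, against 2.35% of windows of tested genes and 0.852% of all windows), and the E-box in 5 (8.47%, against 9.88% and 6.42%). TATAAA stood in 8 windows (13.6%, against 6.76% of windows of tested genes and 14.2% of all windows). Of its 8 matches, 0 lay within 50 bases of the start. The YY1 and ETS matches overlapped in no printed window, and 6 of the 59 windows held both cores. These are matches of letters, and no binding was measured.

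Aligned depth was 7.52 to 10.1 gigabases per library, of which 86.7% to 89.0% lay in the listed transcripts. The files give no read counts, and counting error is therefore unknown. Over all tested genes, model replicate 2 lay at 8.88 on the first principal component, nearer to the combination group (-7.50 to -6.62) than to model replicates 1 and 3 (43.3 and 66.1), and normal libraries lay at -38.5 to -28.4. The second component separated the combination libraries, at -45.4 to -38.5, from the other 6, which lay at 1.17 or more. Model replicate 2 was the farthest from the combination group on it, at 34.3. The first and second components held 21.5% and 18.6% of the variance. Transcripts of 9 listed CD4+ T cell markers summed to 1364 to 1816 TPM in combination, 1326 to 1393 TPM in model and 1416 to 2327 TPM in normal libraries. Named transcripts of Cd3g, 1 of these markers, ran from 1.36 to 798 TPM within the normal group, so the sums carry the division of reads between transcripts. Cd4 itself averaged 27.2 TPM in combination, 31.9 TPM in model and 58.4 TPM in normal libraries. Combination libraries carried other sample names in their file headers than in their labels, so any separate processing of them and the treatment cannot be told apart.

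Most of the 72 genes were expressed at moderate levels. Their mean level over the 9 libraries ran from 1.23 TPM for Mrpl55 to 351 TPM for Mrpl33, with a median of 22.4 TPM, against 5.27 TPM over all tested genes. Large-subunit genes had a median of 23.6 TPM and small-subunit genes 16.2 TPM. Of the 72 genes, 54 reached 10 TPM and 3 reached 100 TPM, while 7 stayed under 5 TPM. The median coefficient of variation over the 9 libraries was 25.9%, against 36.7% over all tested genes, which were not matched for level.

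Mrpl33, a small large-subunit protein of a bacterial family, had the highest level. Mrpl23, which lines the exit of the polypeptide tunnel, was the steadiest gene, with a coefficient of variation of 6.07%. It stood at 141, 140 and 133 TPM in combination, 158, 147 and 132 TPM in model and 151, 151 and 143 TPM in normal libraries. The combination libraries all lay below the normal ones, by amounts small beside the level, and overlapped the model ones (log2 difference from normal -0.10, limma adjusted p = 0.646). Mrpl32, whose precursor must be cut by the m-AAA protease before it joins the ribosome in yeast, stood at 86.7, 93.3 and 96.9 TPM in combination, 118, 102 and 113 TPM in model and 90.6, 83.4 and 77.3 TPM in normal libraries. All its model libraries lay above those of either other group (model minus normal 0.40, limma adjusted p = 0.117). At the low end stood Mrpl55, Mrps12, Mrpl51 and Mrps22, at means of 1.23, 1.77, 2.22 and 3.37 TPM of their named transcripts.

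**Figure D1:**
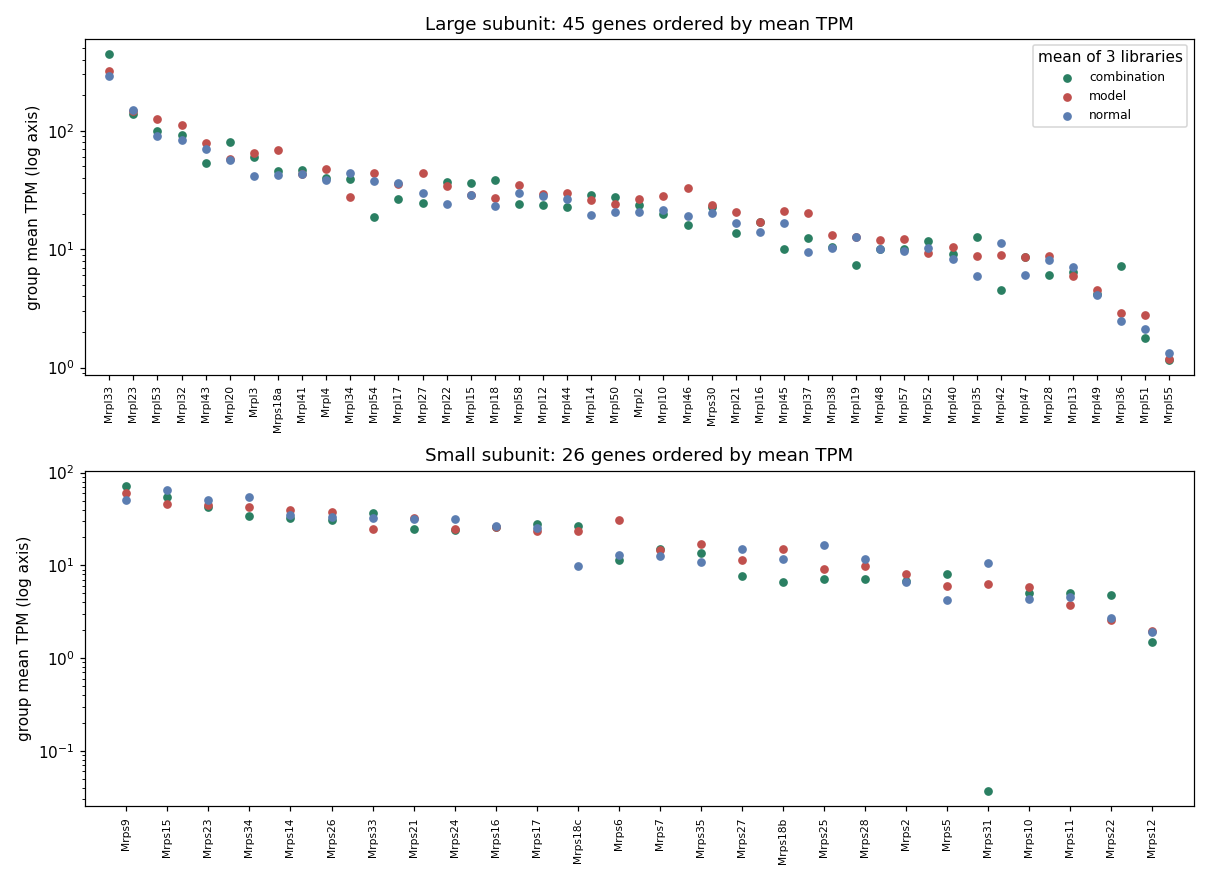
Group mean TPM of named transcripts on a log axis (points, mean of 3 libraries each; green combination, red model, blue normal) for the 45 large-subunit and 26 small-subunit genes, ordered by mean TPM. Most genes lie between 5 and 100 TPM with the group means close together, while Mrps31 has a combination mean of 0.0367 TPM of named transcripts.

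A part of this low end and of the spread rested on how reads were divided between transcripts. For 57 of the 72 genes the locus also held transcripts without a gene name, assigned by exon overlap only where it held several names. Called assembled transcripts here, they may include reference transcripts without a name. Named transcripts held 4.01% to 100% of a gene's total with these added, with a median of 80.2%, under 50% in 14 genes and over 95% in 16. With assembled transcripts added, the lowest mean of the 72 genes was 3.64 TPM, and the number of genes with a coefficient of variation over 50% was 1, which was Mrps6, against 10 with named transcripts alone. The low-lying Mrpl55, known in other mammals as a relative of the bacterial protein L31, went to a mean of 30.6 TPM, and Mrps12, a protein of the decoding centre, to 18.1 TPM. Mrpl13, a bacterial-family protein of the large subunit, had 6.49 TPM of named transcripts within 47.7 TPM.

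Mrps31, a small-subunit protein without a bacterial counterpart, had the largest coefficient of variation, 150%. Its named transcripts stood at 0.0151, 0.0442 and 0.0507 TPM in combination, 0.0282, 0.00899 and 19.0 TPM in model and 16.0, 15.5 and 0.00424 TPM in normal libraries. The 9 libraries thus fell into 3 with a high level and 6 near 0, across the labels. With assembled transcripts added, the same gene stood at 33.6, 32.8 and 27.2 TPM in combination, 23.3, 19.5 and 33.5 TPM in model and 31.3, 32.8 and 18.9 TPM in normal libraries. No library lay near 0 then, and the groups overlapped.

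Mrpl53, a protein at the base of the stalk, stood at 121, 99.4 and 78.5 TPM in combination, 156, 161 and 60.4 TPM in model and 148, 0.11 and 124 TPM in normal libraries. Normal replicate 2 alone was near 0, and with assembled transcripts it held 32.3 TPM. The log2 difference between model and normal was 2.08 with named transcripts and 0.50 with all. In all, 4 genes (Mrpl53, Mrpl42, Mrps31 and Mrpl51) lay under 0.5 TPM in some library and at 5 TPM or more in another, and 0 did so with assembled transcripts added. Mrpl53 and Mrpl51 are also among 7 genes whose locus holds another gene name, between which reads may have been divided.

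**Figure D2:**
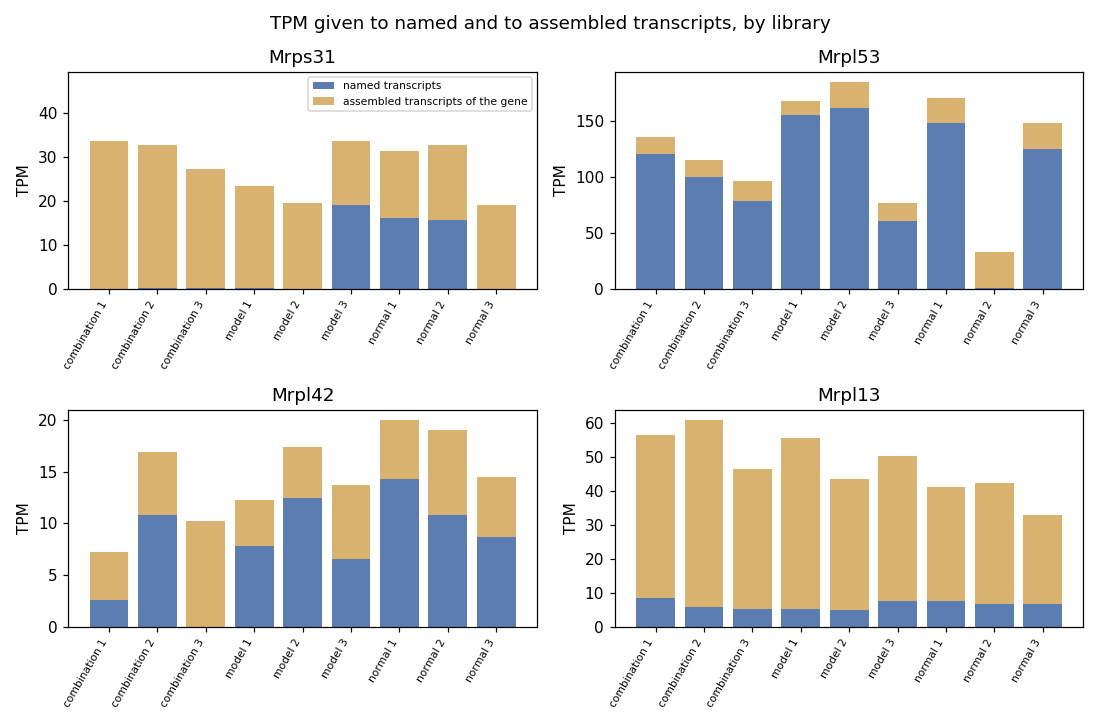
TPM of Mrps31, Mrpl53, Mrpl42 and Mrpl13 in each of the 9 libraries, divided between named transcripts (blue) and assembled transcripts assigned to the same gene (yellow). Mrps31 keeps 18.9 to 33.6 TPM in all libraries while the blue part is visible in only 3, and Mrpl13 is mostly assembled transcripts throughout.

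The 3 names below the filter were Mrpl1 (mean 0.0908 TPM), Mrpl39 (0.0455 TPM) and Mrps21l (0.0167 TPM), and Mrpl55 at 1.23 TPM lay just inside it. With assembled transcripts added, Mrpl1 had 6.84 TPM and Mrpl39, a protein of the tunnel exit, 14.2 TPM. Mrps21l held none.

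Summed over the 72 genes, the mitochondrial ribosomal protein transcripts took 2236 ± 148 TPM in combination, 2341 ± 245 TPM in model and 2084 ± 150 TPM in normal libraries (SD, n = 3 each). The 3 groups overlapped. The 45 large-subunit genes summed to 1728, 1770 and 1586 TPM in combination, 1846, 1895 and 1541 TPM in model and 1655, 1404 and 1433 TPM in normal libraries. The 26 small-subunit genes summed to 503, 601 and 487 TPM in combination, 569, 618 and 513 TPM in model and 586, 562 and 566 TPM in normal libraries. Neither sum separated the groups.

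The ratio of the large-subunit to the small-subunit sum did separate normal libraries from the rest. It was 3.44, 2.94 and 3.26 in combination, 3.24, 3.07 and 3.00 in model and 2.83, 2.50 and 2.53 in normal libraries. Every normal library lay below every other library, and combination and model overlapped. With assembled transcripts added, the ratio averaged 2.54 ± 0.0518 in combination, 2.61 ± 0.115 in model and 2.22 ± 0.151 in normal libraries (SD, n = 3 each), again with all normal libraries lowest.

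The separation of combination from normal libraries in this ratio rested on Mrpl33. Without Mrpl53 alone every normal library was still lowest, at 2.57 or less, against at least 2.78 in all others. Without Mrpl33 alone combination replicate 2, at 2.14, lay among the normal libraries, at 2.00 to 2.27. Without both it was 2.32, 1.98 and 2.26 in combination, 2.32, 2.31 and 2.33 in model and 2.02, 2.00 and 1.85 in normal libraries. Model still lay above normal, and combination replicate 2 lay among the normal libraries. The ratio of the median large-subunit to the median small-subunit gene averaged 1.44 ± 0.261 in combination, 1.29 ± 0.0767 in model and 1.28 ± 0.0468 in normal libraries, and the groups overlapped. The median small-subunit gene stood at 18.5 to 20.5 TPM in model and 15.3 to 16.4 TPM in normal libraries, without overlap, although the sum over the same 26 genes did overlap. The median large-subunit gene stood at 22.4 to 27.9 TPM in model and 18.9 to 21.7 TPM in normal libraries, also without overlap.

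**Figure D3:**
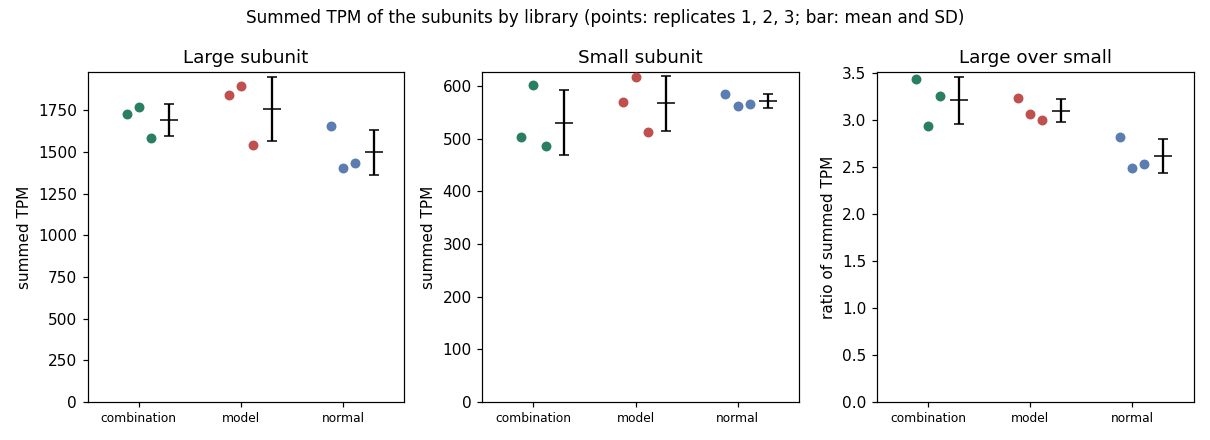
Summed TPM of the 45 large-subunit and 26 small-subunit genes and their ratio in each library (points, replicates 1 to 3; bars, mean and SD of 3 libraries). The sums overlap between groups, while the ratio of every normal library, at most 2.83, lies below that of every combination and model library, at least 2.94.

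Model against normal libraries asks how these genes differ in blood CD4+ T cells of arthritic rats. Counted gene by gene, the large-subunit genes lay mostly higher in model libraries and the small-subunit genes did not, although the median level of both subunits was higher there. Of the 45 large-subunit genes, 34 had a higher mean log2 level in model than in normal libraries, with a median log2 difference of 0.23 on the log2(TPM + 1) scale. Of the 26 small-subunit genes, 13 were above and 13 below 0, with a median of -0.027. The median large-subunit minus the median small-subunit log2 level of a library had an SD of 0.158 between libraries within groups. That SD belongs to library medians and is no measure of spread for the medians of gene differences. In TPM, the median large-subunit over the median small-subunit gene averaged 1.29 in model and 1.28 in normal libraries. Over all tested genes 47.7% were above 0 and the median was -0.029. For 13 large-subunit genes, or 28.9%, all model libraries lay above all normal ones, and for 0 they all lay below. For the small subunit these counts were 4 and 3. Among all tested genes 15.4% lay entirely above and 14.1% entirely below.

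Only Mrps6 passed the test in this comparison, 1 of 72 genes or 1.39%, against 2.12% of all tested genes called in either direction and 0.956% called higher (limma, adjusted p under 0.05 by the Benjamini-Hochberg method). At an unadjusted p under 0.05 there were 8 genes higher and 1 lower, or 12.5% of the 72, against 22.3% of all tested genes. The called share of 1.39% thus lay below that of all tested genes in either direction and above that called higher. It rests on 1 gene, which cannot decide between these readings.

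Mrps6 encodes a bacterial-family protein on the platform of the small subunit and lies on chromosome 11 (rn6, 32211115 to 32263899, forward strand, 3 exons in a transcript of 699 bases). It stood at 9.55, 11.3 and 13.5 TPM in combination, 28.0, 22.6 and 40.9 TPM in model and 13.4, 13.4 and 11.8 TPM in normal libraries. All model libraries lay above all others, and combination and normal overlapped. Mrps6 rose in model libraries by 1.14 on the log2 scale (SE 0.232, limma adjusted p = 0.0492). With each library left out in turn the difference was 0.92 to 1.33, and the adjusted p lay under 0.05 only without model replicate 2 (0.0172). Without any of the other 8 libraries it was 0.0578 to 0.159.

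Mrps18a, a large-subunit protein of a bacterial family, was the next gene, and it, Mrpl3, Mrpl13, Mrpl18, Mrpl27, Mrpl37, Mrpl46, Mrps11 and Mrps15 were singled out after their values were seen. It stood at 49.2, 49.6 and 37.6 TPM in combination, 74.3, 62.2 and 70.2 TPM in model and 44.2, 40.2 and 41.6 TPM in normal libraries. All model libraries lay above all others, with a difference of 0.70 from normal (SE 0.154) and a limma adjusted p of 0.0599. With assembled transcripts added to every gene it was 0.0384, and Mrpl37, another large-subunit protein, had 0.0339. With Mrps6 at 0.0301, that made 3 of the 72 genes called, against 4.99% of all genes so tested.

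Mrpl46, of the central protuberance at the top of the large subunit, stood at 17.2, 21.0 and 9.47 TPM in combination, 32.8, 33.4 and 33.2 TPM in model and 15.8, 21.4 and 19.8 TPM in normal libraries. Its model libraries were close together and well above the rest, but the difference of 0.78 from normal had a limma adjusted p of 0.143, and it was 0.47 with assembled transcripts added. Mrpl3, which reaches toward the peptidyl transferase centre, stood at 66.2, 63.7 and 50.8 TPM in combination, 69.8, 52.7 and 73.4 TPM in model and 45.4, 40.9 and 38.3 TPM in normal libraries. Here both CIA groups lay above all normal libraries (model minus normal 0.63, adjusted p = 0.096).

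A few genes ran the other way. Mrps15, which helps to join the subunits, stood at 60.9, 55.6 and 45.8 TPM in combination, 42.6, 54.5 and 41.5 TPM in model and 72.4, 60.6 and 61.3 TPM in normal libraries. Its model libraries lay below all normal ones, with a difference of -0.48 and a limma adjusted p of 0.151. Mrpl34, a bacterial-family protein of the large subunit, stood at 39.2, 42.5 and 36.1 TPM in combination, 25.2, 44.1 and 12.9 TPM in model and 43.5, 43.4 and 44.0 TPM in normal libraries. Model replicate 2 lay with the normal libraries and the other model libraries far below. Its difference was -0.81 with an adjusted p of 0.232, and -1.23 with an adjusted p of 0.0309 without model replicate 2.

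Mrps25, a small-subunit protein without a bacterial counterpart, stood at 10.1, 9.32 and 2.11 TPM in combination, 6.54, 15.0 and 5.89 TPM in model and 17.6, 16.2 and 15.8 TPM in normal libraries. Every normal library lay above every other library, though the difference of -0.90 between model and normal had a limma adjusted p of 0.334.

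Model replicate 2, which stood apart over all genes, was above both other model libraries in 35 of the 72 genes (48.6%, against 44.1% of all tested genes) and below both in 16 (22.2%, against 28.9%). Transcripts of 6 erythroid marker genes summed to 2287 to 13525 TPM in model and 58.8 to 1115 TPM in normal libraries. They take part of the total to which TPM is scaled. With haemoglobin, mitochondrial and cytosolic ribosomal protein genes left out and TPM rescaled, Mrps6 differed by 1.13 with an adjusted p of 0.054.

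**Figure D4:**
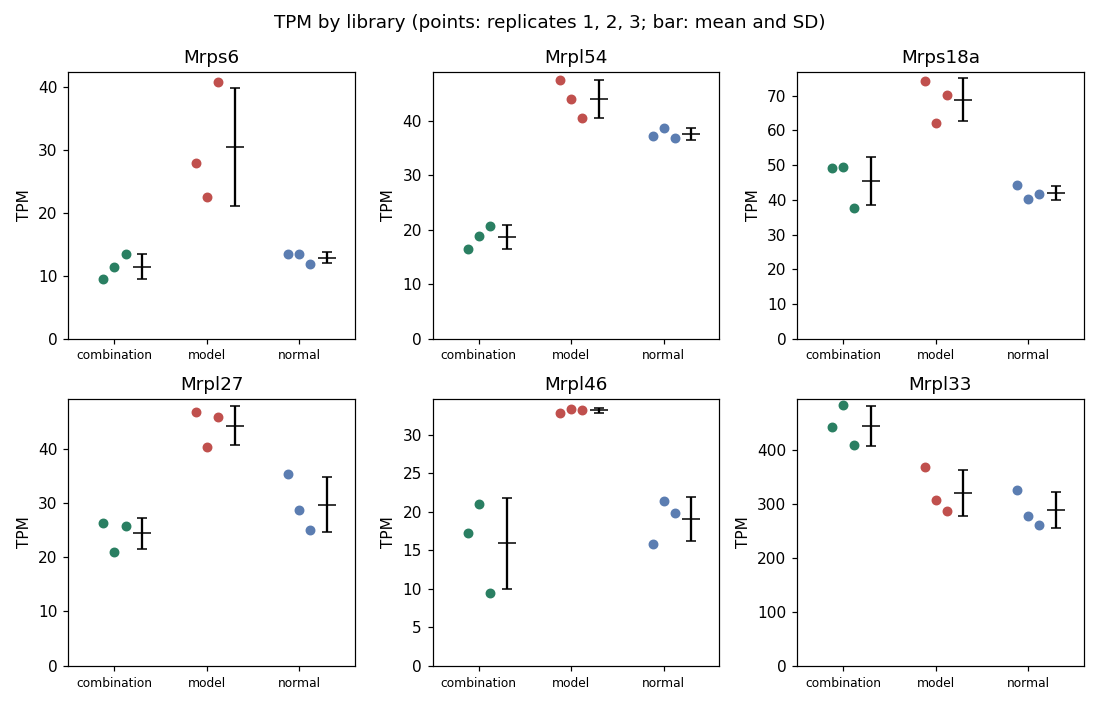
TPM of 6 genes in each library (points, replicates 1 to 3; bars, mean and SD of 3 libraries), from 0. In Mrps6, Mrps18a, Mrpl27 and Mrpl46 the model libraries lie above both other groups, in Mrpl54 the combination libraries lie lowest, at 16.4 to 20.7 TPM, and in Mrpl33 they lie highest, at 408 to 482 TPM.

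Combination against model libraries asks what differs with the treatment. Here 49 of the 72 genes had a lower mean log2 level in combination than in model libraries, 31 of 45 in the large and 17 of 26 in the small subunit. The median log2 difference was -0.22 in the large subunit, -0.099 in the small subunit and 0.010 over all tested genes. For 15 genes all combination libraries lay below all model ones and for 6 they lay above, against 12.8% and 13% of all tested genes. The large subunit held 12 of the 15, or 26.7% of its genes. This comparison and that of model with normal share the model libraries, so their signs are not independent. Genes found only in mitochondria had a median of -0.32 (23 of 28 below 0), and bacterial-family genes -0.056 (25 of 43 below 0). These medians were -0.21 and -0.073 with assembled transcripts added, and that of the small subunit was -0.046. The difference between these families was not tested.

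Mrpl54 and Mrps6 passed the test, 2 of 72 genes or 2.78%, against 1.1% of all tested genes called in either direction and 0.61% called lower (limma, adjusted p under 0.05), and both fell. At an unadjusted p under 0.05 there were 3 genes higher and 11 lower, or 19.4%, against 22.9% of all tested genes.

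Mrpl54 encodes a large-subunit protein without a bacterial counterpart and lies on chromosome 7 (rn6, 11321057 to 11323577, forward strand, 3 exons in a transcript of 611 bases). No assembled transcript was added to it. It stood at 16.4, 18.9 and 20.7 TPM in combination, 47.4, 44.0 and 40.5 TPM in model and 37.1, 38.8 and 36.7 TPM in normal libraries. The 3 groups did not overlap, and combination was far below both other groups. It fell by 1.20 on the log2 scale in combination relative to model libraries (SE 0.143, limma adjusted p = 0.0223). With a library left out in turn the adjusted p was 0.021 without model replicate 2, 0.0271 without combination replicate 3 and 0.0381 without model replicate 3. Without any of the other 6 libraries it was 0.0517 to 0.0706, with differences of -1.27 to -1.11 over all 9 omissions.

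Mrps6 fell by 1.31 in combination relative to model libraries (SE 0.232, limma adjusted p = 0.046), and overlapped the normal group. Its adjusted p was 0.0268 without model replicate 2, and 0.0771 to 0.11 without any of the other 8 libraries. Mrpl27, whose tail reaches toward the peptidyl transferase centre, stood at 26.2, 21.0 and 25.8 TPM in combination, 46.7, 40.2 and 45.8 TPM in model and 35.3, 28.7 and 25.1 TPM in normal libraries. Combination lay below model throughout, by 0.84 on the log2 scale with a limma adjusted p of 0.0587, which was 0.0296 with assembled transcripts added to every gene. With these, 3 of the 72 genes were called, against 4.49% of all genes so tested. Mrpl46 differed by -1.08 (SE 0.268, adjusted p = 0.08) and Mrps18a by -0.60 (SE 0.154, adjusted p = 0.0867).

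Of the genes that stood higher in combination libraries, Mrps33, a small-subunit protein without a bacterial counterpart, had 34.8, 38.8 and 35.4 TPM in combination, 30.5, 24.6 and 18.3 TPM in model and 27.0, 41.1 and 29.7 TPM in normal libraries. It lay above every model library and overlapped normal (combination minus model 0.58, limma adjusted p = 0.177). Mrpl42, a large-subunit protein without a bacterial counterpart, stood at 2.62, 10.8 and 0 TPM in combination, 7.77, 12.4 and 6.58 TPM in model and 14.3, 10.8 and 8.71 TPM in normal libraries. The groups overlapped, and the difference of -1.46 from model (adjusted p = 0.293) was -0.37 with assembled transcripts added.

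Monocyte markers summed to 263 to 509 TPM in combination, 59.7 to 158 TPM in model and 23.2 to 133 TPM in normal libraries over 7 genes. Platelet markers summed to 64.0 to 107 TPM in combination, 15.1 to 27.9 TPM in model and 8.51 to 27.3 TPM in normal libraries over 7 genes. Erythroid markers, highest in model libraries, summed to 260 to 861 TPM in combination and 2287 to 13525 TPM in model libraries over 6 genes, without overlap. Markers of CD8 T and NK cells summed to 13.4 to 24.9 TPM in combination, 6.73 to 17.7 TPM in model and 27.1 to 31.7 TPM in normal libraries, and markers of neutrophils to 4.99 to 8.30 TPM in combination, 0.522 to 8.73 TPM in model and 14.3 to 33.7 TPM in normal libraries. Between combination and normal libraries the single markers of these last 2 lists were divided. Cd8a, Cd8b, Nkg7, Gzma and Ncr1 averaged higher in combination, and Klrd1, Klrk1, Gzmb and Prf1 lower. Csf3r, Mpo and Elane averaged higher in combination, and S100a8, S100a9, Mmp8 and Camp lower. In model libraries all of them averaged lower than in normal ones. The part of all these cell types in the differences of the mitochondrial ribosomal protein genes was not tested.

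Combination libraries were also set against normal ones. The median log2 difference of the 72 genes was -0.013, against 0.0020 over all tested genes, with 0.034 in the large and -0.12 in the small subunit. The genes lay on both sides: in 10 all combination libraries lay above all normal ones, and in 15 below, against 13.8% and 17% of all tested genes. The large subunit gave 8 of the 10 and 9 of the 15, and the small subunit gave 2 and 5.

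Mrpl54 alone passed the test, 1 of 72 genes or 1.39%, against 0.792% of all tested genes called in either direction and 0.421% called lower. It fell by 0.98 relative to normal libraries (SE 0.143, limma adjusted p = 0.0352). Without combination replicate 1 or 2, or without any of the normal replicates, its adjusted p was 0.0804 to 0.131. Without any of the model libraries or combination replicate 3 it was 0.019 to 0.0449. At an unadjusted p under 0.05 there were 8 genes higher and 8 lower, or 22.2%, against 20.8% of all tested genes.

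Mrpl33 lies on chromosome 6 (rn6, 26130488 to 26138414, reverse strand), with a longest transcript of 198 bases. It stood at 442, 482 and 408 TPM in combination, 368, 307 and 286 TPM in model and 325, 278 and 261 TPM in normal libraries. All combination libraries lay above all others, and model and normal overlapped. The difference from normal was 0.63 (SE 0.141, limma adjusted p = 0.0737), and 0.0459 was its adjusted p with assembled transcripts added to every gene. It and Mrpl54 were then the 2 genes called, against 4.59% of all genes so tested. From model it differed by 0.48 (adjusted p = 0.11). Mrpl33 was the only one of the 72 genes under 300 bases. Over all 799 tested genes under 300 bases, the median difference between combination and model libraries was 0.40, with 21 called higher and 0 lower, and between combination and normal libraries it was 0.076, with 0 called higher and 2 lower.

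Mrpl35, a bacterial-family protein of the large subunit, stood at 16.0, 7.66 and 14.5 TPM in combination, 9.41, 7.08 and 9.82 TPM in model and 6.35, 6.72 and 4.70 TPM in normal libraries. The normal libraries were lowest throughout (combination minus normal 0.94, limma adjusted p = 0.123). The difference was 0.53 with assembled transcripts added, and combination replicate 2, at 13.6 TPM, lay among the normal libraries, at 11.3 to 14.9 TPM. Mrps18c, a bacterial-family protein of the small subunit, had 16.0, 33.3 and 31.0 TPM in combination, 37.8, 23.7 and 9.75 TPM in model and 16.4, 2.32 and 10.5 TPM in normal libraries. Its groups overlapped, and the difference of 1.60 between combination and normal (adjusted p = 0.222) was 0.56 with assembled transcripts added. Mrpl36, a relative of the smallest bacterial ribosomal protein, had 1.99, 4.19 and 15.5 TPM in combination, 3.82, 2.97 and 1.91 TPM in model and 4.00, 1.99 and 1.49 TPM in normal libraries. Combination replicate 3 alone was high, and with assembled transcripts it held 15.5 TPM, the lowest of the 9 libraries.

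**Figure D5:**
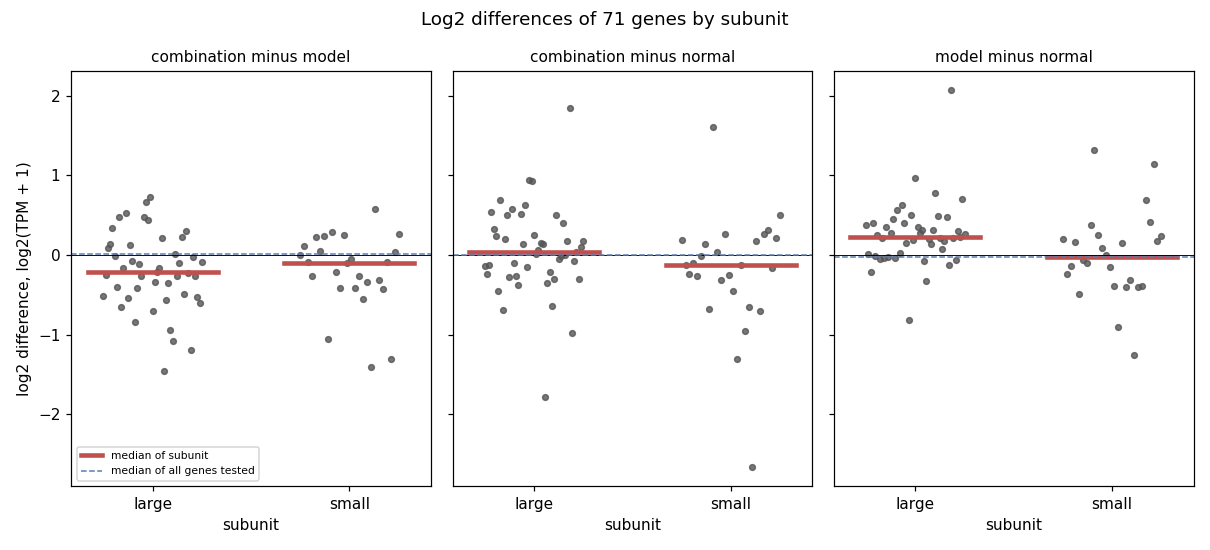
Log2 differences on the log2(TPM + 1) scale of the 45 large-subunit and 26 small-subunit genes (points) in the 3 comparisons, with the median of each subunit (red) and of all tested genes (dashed). In model minus normal the large-subunit median is 0.23 and the small-subunit median -0.027. In combination minus model they are -0.22 and -0.099.

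Within the large subunit, the 6 genes of the central protuberance (Mrpl18, Mrpl38, Mrpl40, Mrpl46, Mrpl48 and Mrpl58), which contacts transfer RNAs, were all above 0 in model relative to normal libraries, with a median of 0.27. None passed the limma test, and 1, Mrpl46, had an unadjusted p under 0.05. In combination relative to model libraries their median was -0.30, with 5 of 6 below 0. The exception, Mrpl18, stood at 30.9, 45.2 and 38.7 TPM in combination, 30.4, 27.9 and 23.3 TPM in model and 23.9, 25.6 and 20.01 TPM in normal libraries. It was highest in combination (combination minus normal 0.69, limma adjusted p = 0.103). The 6 tested genes at the tunnel exit had medians of 0.22 in model minus normal, -0.21 in combination minus model and -0.16 in combination minus normal. The 3 tested genes of the stalk, which recruits translation factors, had medians of 0.38, -0.24 and -0.14 in the same 3 comparisons.

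The genes that make, load and regulate the mitochondrial ribosome were examined beside its own proteins. None of 62 such genes, in 5 lists, passed the limma test in any comparison. At an unadjusted p under 0.05 there were 7 in model minus normal (11.3%), 12 in combination minus model (19.4%) and 17 in combination minus normal (27.4%), against 22.3%, 22.9% and 20.8% of all tested genes. With assembled transcripts added, 2, 4 and 4 of them passed in the same comparisons, or 3.23%, 6.45% and 6.45%, against 4.99%, 4.49% and 4.59% of all genes so tested. These were Rpusd4 (higher) and Myc (lower) in model minus normal, Mrm3, Rpusd4, Mpv17l2 and Polg (all lower) in combination minus model, and Gtpbp10 and Slirp (higher) and Elac2 and Myc (lower) in combination minus normal. Proteins of the particle under other names (4 of 6 tested) had a median of 0.20 in model minus normal and -0.12 in combination minus model, the second being -0.060 with assembled transcripts added. Among them Dap3, a GTP-binding protein of the small subunit, stood at 9.64, 10.0 and 9.17 TPM in combination, 17.0, 15.0 and 16.8 TPM in model and 15.7, 16.5 and 13.6 TPM in normal libraries. All combination libraries lay below all others (combination minus model -0.70, adjusted p = 0.0593), but with assembled transcripts the difference was -0.088. Chchd1, another small-subunit protein, averaged 75.0 ± 10.5 TPM in combination, 63.4 ± 10.3 TPM in model and 47.3 ± 13.9 TPM in normal libraries (SD, n = 3 each; combination minus normal 0.68, adjusted p = 0.15).

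Mitochondrial translation factors (9 of 15 tested) had medians of 0.22 in model minus normal and -0.16 in combination minus model, the second being -0.042 with assembled transcripts added. Gfm1, the elongation factor that moves the ribosome along, averaged 23.5 ± 4.80 TPM in combination, 28.5 ± 4.71 TPM in model and 21.3 ± 2.79 TPM in normal libraries (SD, n = 3 each). Its combination libraries overlapped both other groups, while its lowest model library, at 24.47 TPM, lay just above the highest normal one, at 24.31 TPM (model minus normal 0.40, adjusted p = 0.291). Mtif3, an initiation factor, averaged 5.69 ± 2.07 TPM in combination, 7.75 ± 0.897 TPM in model and 5.44 ± 0.519 TPM in normal libraries, and its model libraries lay above all normal ones (0.44, limma adjusted p = 0.321).

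Assembly and ribosomal RNA modification factors (22 of 30 tested) had medians of 0.18 in model minus normal and -0.31 in combination minus model, with 17 of 22 below 0 in the second. The second was -0.20 with assembled transcripts added, with 15 of 22 below 0. Gtpbp10, a GTPase of large-subunit assembly, averaged 29.8 ± 2.87 TPM in combination, 21.8 ± 3.21 TPM in model and 18.5 ± 1.41 TPM in normal libraries (combination minus normal 0.65, limma adjusted p = 0.0847). It was the other way for Mtg1, also a GTPase of large-subunit assembly, at 9.43 ± 0.970 TPM in combination, 14.2 ± 2.33 TPM in model and 15.2 ± 1.53 TPM in normal libraries (combination minus normal -0.63, adjusted p = 0.104). That difference was 0.080 with assembled transcripts added.

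Transcription and RNA processing genes (14 of 18 tested) had medians of -0.055 in model minus normal and 0.13 in combination minus model, and with assembled transcripts added -0.12 and 0.11. Elac2, which cuts transfer RNAs out of mitochondrial precursors at their 3′ ends, stood at 2.83, 3.79 and 2.95 TPM in combination, 5.13, 11.3 and 7.65 TPM in model and 12.005, 10.3 and 9.24 TPM in normal libraries. Combination was lowest throughout, and its difference from normal of -1.46 (SE 0.263) had a limma adjusted p of 0.0515. Slirp, a partner of Lrpprc in stabilising mitochondrial messenger RNA, averaged 9.96 ± 1.78 TPM in combination, 6.55 ± 1.32 TPM in model and 4.92 ± 0.201 TPM in normal libraries (combination minus normal 0.88, adjusted p = 0.0708).

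Regulators of nuclear genes for mitochondria (13 of 15 tested) had medians of 0.037 in model minus normal and -0.20 in combination minus model, and with assembled transcripts added 0.077 and -0.011. Myc, a transcription factor that drives ribosome and mitochondrial genes in growing cells, stood at 17.4, 7.40 and 15.1 TPM in combination, 16.5, 4.60 and 7.90 TPM in model and 29.7, 33.3 and 32.9 TPM in normal libraries. Every normal library lay above every other library (model minus normal -1.79, SE 0.430, limma adjusted p = 0.0711). Ppargc1b, a coactivator of mitochondrial genes, averaged 0.672 TPM in combination, 1.06 TPM in model and 1.76 TPM in normal libraries (combination minus normal -0.71, adjusted p = 0.131).

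In the rn6 coordinates of the deposited transcripts, 16 of the 72 genes (22.2%) started within 1000 bases of another named gene on the opposite strand, against 11.1% of 9287 named genes tested. Mrpl46 and Mrps11, a large and a small subunit gene, started 72 bases apart. Mrpl46 was higher in model than in normal libraries by 0.78 (limma adjusted p = 0.143), while Mrps11 differed by -0.24 (adjusted p = 0.811). The differences were 0.47 for Mrpl46 and 0.081 for Mrps11 with assembled transcripts added. Mrps12 started 16 bases from Sars2, the mitochondrial seryl-tRNA synthetase, Mrps27 67 bases from Ptcd2, an RNA-binding protein of mitochondria, and Mrpl47 266 bases from Ndufb5, a subunit of respiratory complex I. Mrpl32 started 192 bases from Psma2, a proteasome subunit, and Mrpl18 372 bases from Tcp1, a subunit of the cytosolic chaperonin.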

How the data were processed

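RNA of CD4+ T cells from rat peripheral blood was sequenced in 9 libraries. Per the submitters' processing notes bcl2fastq and HISAT2 were used with genome rn6, and StringTie 1.3.3b then quantified a fixed, merged transcript set, per the file headers. Versions of HISAT2 and bcl2fastq are not given in the sources used here. The deposited files hold other text attributes, in which the authors' StringTie run wrote coverage, FPKM and TPM for each of 80092 transcripts in 35817 loci. Of these transcripts, 39026 had no reference identifier and no gene name. They were counted as assembled and held 30.7% of TPM.

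TPM of named transcripts was summed per gene name and locus. Assembled transcripts of loci with a gene name, together with reference transcripts without a name there, held 25.9% of TPM and were left out of the sums. As an alternative they were added to the gene name of their locus, by exon overlap where the locus held several names. The 12128 genes and unnamed loci with a mean of at least 1 TPM entered 1 two-sided fit over the 9 libraries in limma 3.58.1 (R 4.3.3) on the log2(TPM + 1) scale. It had 1 coefficient for each group, an intensity trend, and 6 and 2.35 degrees of freedom, residual and prior, with Benjamini-Hochberg adjustment over all genes at 0.05. A fold change on this scale understates that of low genes. The procedure was tested on simulated data. Python 3.11.15, numpy 2.4.6, pandas 2.3.3 and matplotlib 3.10.9 served for tables and figures.

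The members, lists and rules were chosen with earlier results of these data known. Genes were named by rule: all past the threshold, the 4 highest and 4 lowest by mean TPM, the 3 largest differences each way per comparison, the extremes of the coefficient of variation, and in other lists those past the threshold or the 2 of smallest p. Alternatives were assembled transcripts added, locus sums, FPKM, pseudocounts of 0.1 and 5, a minimum of 5 TPM or none, median-ratio scaling, TPM rescaled without genes of haemoglobin, mitochondria and ribosomes, a fit of 2 groups, no trend, array weights, a replicate block, subunits by letter, and each library left out. Promoter windows came from RefSeq on GRCr8 and were matched by symbol; no rn6 genome sequence was used here.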

Additional observations from a re-analysis of the deposited data

How the results depend on the processing

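The number of mitochondrial ribosomal protein genes past the threshold was small. Omission of single libraries aside, it moved with most settings in model minus normal and with fewer in the other comparisons. The median over the 72 genes kept its place over all alternatives. It was 0.12 to 0.26 in model minus normal and -0.25 to -0.053 in combination minus model. In combination minus normal it lay on either side of 0 (-0.093 to 0.043). The large-subunit median exceeded the small-subunit one by 0.16 to 0.40 in model minus normal under every alternative. The large-subunit minus the small-subunit median was -0.15 to -0.0023 in combination minus model, close to 0 under some alternatives. In combination minus normal it was 0.0795 to 0.25. In model minus normal, against 1 gene, 4 were called with array weights (5.56%, against 9.19% of all genes tested). With assembled transcripts added and with locus sums 3 were called (4.17%, against 4.99% and 5.35%). With FPKM and with a minimum mean of 5 TPM 2 were called (2.78%, against 4.40% and 3.70%). The count was 0 without a filter (against 0.064% of all genes tested), without a trend (1.82%) and with only the 2 groups compared (0.363%). It was also 0 with a pseudocount of 0.1 (1.58%) and with TPM rescaled without genes of haemoglobin, mitochondria and ribosomes (2.30%). In combination minus model, against 2 genes, 4 were called with median-ratio scaling (5.56%, against 3.94% of all genes tested). Without a filter and with a pseudocount of 5 there was 1 (1.39%, against 0.0707% and 0.528%). With only the 2 groups compared there were 0, against 0.124% of all genes tested. In combination minus normal, against 1 gene, 7 were called with array weights (9.72%, against 14.1% of all genes tested). With assembled transcripts added and with locus sums 2 were called (2.78%, against 4.59% and 4.86%). Leaving out each library in turn gave 0 to 4, 0 to 2 and 0 to 1 genes in these comparisons. Of all genes tested, 0.0248% to 10.1%, 0.05% to 3.32% and 0.124% to 3.83% were called over these omissions. The 4 (5.56%) and the 2 (2.78%) came without model replicate 2, when 10.1% and 3.32% of all genes tested were called. The cause was not tested. Mrps6 kept its call in model minus normal under 6 of 13 other settings and Mrpl54 in combination minus normal under 12 of 13. Limiting the list to genes with at least 50% of TPM in named transcripts, chosen after seeing the data, used the same fit. The called genes, Mrps6 (88.4% in named transcripts) and Mrpl54 (100%), stayed in the list, so no count of called genes could change.

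Replicate numbers did not pair the libraries: residuals of equal numbers correlated at -0.0824 to 0.0645, and 2 of 9 libraries correlated best with their own number. With a replicate block 0 of the 72 genes were called in each comparison. Of all 12128 genes tested, 1 was then called in model minus normal (0.0082%), 6 in combination minus model (0.049%) and 3 in combination minus normal (0.025%). The unknown read counts and 3 libraries per group limit what could be detected.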
